A study of Homo sapiens with 6 samples.

Results

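hsa-miR-21-5p and hsa-miR-21-3p, the mature microRNAs cut from the 5′ and the 3′ side of the miR-21 hairpin, were followed across all samples of a small-RNA sequencing experiment in K562 cells. They are 2 of the 2596 microRNA entries, and of the 28846 small RNA entries, in the deposited count files. They were chosen by name and not by a rule on their values, with earlier results of these data known. K562 is a human leukemia cell line with erythroid features. Control cells (n = 3) carried the empty lentiviral vector SIEW, which expresses GFP only, and RUNX1 cells (n = 3) carried SIEW RUNX1, which expresses RUNX1 together with GFP. RUNX1 is a transcription factor of blood cell development. RNA was harvested after 10 days in culture, and each sample was a transduction of its own. The libraries hold small RNA, so RUNX1 itself was not measured in them and the groups rest here on the labels. The study shows RUNX1 over-expression in K562 cells by Western blot, without stating whether the blot used the sequenced transductions. The question was how the small RNAs of these cells change upon RUNX1 over-expression. Values given with ± are means with the SD over the 3 samples of a group, and SE is the standard error of a log2 change, RUNX1 over control.

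A microRNA is transcribed as a long primary transcript, from which Drosha cuts a hairpin and Dicer a short duplex. In most hairpins a guide arm is loaded into an Argonaute protein and directs it to messenger RNAs, mainly by the seed at bases 2 to 8, while the passenger arm is degraded. The 5p arm is the guide of miR-21. It is among the microRNAs most often raised in tumours, and the tumour suppressor PDCD4 is among its known targets.

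The mature sequences in RefSeq (GRCh38.p14) show which other microRNA carries the seed of miR-21-5p. The table held 1 of the 2 arms, miR-21-5p. Of 2370 mature microRNAs in it, miR-590-5p was the only other with this seed. Sequences run 5′ to 3′, with the seed in capitals.
hsa-miR-21-5p: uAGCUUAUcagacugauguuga
hsa-miR-590-5p: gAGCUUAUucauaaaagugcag
Behind the seed, both had the same base at 1 of 14 positions. The hairpin shows where the 5p arm, in capitals, lies in the precursor, from base 8 to base 29.
MIR21 hairpin: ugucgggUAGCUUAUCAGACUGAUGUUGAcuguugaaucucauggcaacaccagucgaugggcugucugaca

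MIR21 lies on the plus strand of chromosome 17 of GRCh38, from 59841266 to 59841337, within the gene VMP1 (59707192 to 59842255, same strand; GENCODE release 29). A protein-coding transcript of VMP1 ends 173 bases before the hairpin, and the hairpin overlaps an exon of a VMP1 transcript annotated as a retained intron. These positions come from the annotation and not from the files, whose build the labels give as hg19.

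Total counts ranged from 1618248 to 15245007 per sample, and microRNAs took 81.4% to 82.1% of them in control and 89.5% to 91.9% in RUNX1 cells. RUNX1 replicate 3 stood apart from the other RUNX1 replicates (chi-square per degree of freedom 451 and 314, against 56.3 between replicates 1 and 2). The library names of the groups carry different letters, so that any difference in preparation which the letters mark cannot be told apart from the condition. MicroRNAs with several copies in the genome had few counts. Of 158 entries with several loci in RefSeq, 1 had more than 10000 counts over the 6 samples, against 85 of 2104 entries with 1 locus, and let-7a-5p, with 3 loci, had 9 to 69 counts per sample. The shares below are therefore shares of the microRNAs as counted. The erythroid miR-451a, miR-144-3p, miR-144-5p and miR-486-5p were detected in every sample. Their summed share was 0.713% to 0.759% in control and 0.192% to 0.357% in RUNX1 cells. Detection alone does not set the cell type, as a leukocyte list read below took 2.14% to 2.45% in control.

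miR-21-5p was the most abundant microRNA of control K562 cells and took a smaller share of the microRNA counts in every RUNX1 sample. Control replicates 1 to 3 had 138994, 477632 and 523643 counts of it, and RUNX1 replicates 1 to 3 had 955987, 549042 and 485210. In the control samples these were 10.5% (95% Wilson interval 10.42 to 10.52), 9.54% (9.51 to 9.57) and 10.3% (10.28 to 10.33) of the microRNA counts. In the RUNX1 samples they were 6.83% (6.81 to 6.84), 7.07% (7.05 to 7.09) and 6.85% (6.83 to 6.87). The groups did not overlap, and the RUNX1 samples lay close together. A lower share was common. With total microRNA counts as library size, 317 of 598 tested microRNAs fell and 81 rose by the thresholds of the study given below. How many microRNAs had shares that do not overlap was not counted. With the normalised counts given below, another measure, 61.7% of 598 tested microRNAs had groups that do not overlap. The mean share was 10.1% ± 0.495 in control against 6.92% ± 0.136 in RUNX1 cells (two-sided exact permutation test, p = 0.1, and no lower p is possible with 3 samples a group). The intervals cover counting error only and not the spread between samples. The reads carry no molecular identifiers, so copies of a molecule count as separate reads.

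The smaller arm had the same order of groups. Control replicates 1 to 3 had 12875, 49825 and 55431 counts of miR-21-3p, and RUNX1 replicates 1 to 3 had 57624, 34339 and 38173. Its shares were 0.970% (0.953 to 0.986), 0.995% (0.987 to 1.004) and 1.09% (1.08 to 1.10) in control, and 0.411% (0.408 to 0.415), 0.442% (0.438 to 0.447) and 0.539% (0.533 to 0.544) in RUNX1 cells, with the same kind of interval. The groups again did not overlap, a pattern not counted over all microRNAs for the share, and RUNX1 replicate 3 was the highest of its group. The means were 1.02% ± 0.0638 and 0.464% ± 0.0664 (two-sided exact permutation test, p = 0.1). The RUNX1 mean was thus 0.456 times the control mean for miR-21-3p and 0.684 times for miR-21-5p. Of all counts, microRNA or not, miR-21-5p took 8.27% ± 0.444 in control against 6.28% ± 0.164 in RUNX1 cells, and miR-21-3p 0.833% ± 0.0538 against 0.421% ± 0.0542.

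In the order of microRNAs, miR-21-5p ranked 1 in each control sample, and 4, 3 and 4 in the RUNX1 samples. In control it was followed by miR-191-5p with 8.10% ± 0.129, miR-10a-5p with 7.74% ± 0.753 and miR-126-5p with 6.43% ± 0.0877 of microRNA counts, and none of their samples reached the lowest miR-21-5p sample. In RUNX1 cells miR-10a-5p, encoded in the HOXB cluster, came first with 30.2% ± 2.46, followed by miR-191-5p with 8.73% ± 1.33. By the mean share miR-21-5p then ranked 3. Its samples overlapped those of the next microRNA, miR-146b-5p with 6.60% ± 0.460, while miR-22-3p with 5.46% ± 0.294 and miR-182-5p with 3.62% ± 0.739 lay lower. miR-21-3p ranked 23 to 25 in control and 26 to 28 in RUNX1 cells. Its samples overlapped those of miR-92b-3p and miR-183-5p, the next lower microRNAs in control, and in RUNX1 cells those of miR-183-5p, miR-130b-3p, miR-19a-3p and miR-93-5p.

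The share of each microRNA depends on the others, and miR-10a-5p alone took 22.5 percentage points more of the microRNA counts in RUNX1 cells. With miR-10a-5p left out of the total, miR-21-5p had 11.0% ± 0.545 in control against 9.92% ± 0.488 in RUNX1 cells, and the groups overlapped (two-sided exact permutation test, p = 0.2). For miR-21-3p the groups stayed apart, with 1.10% ± 0.0784 against 0.664% ± 0.0732 (two-sided exact permutation test, p = 0.1). With this total as library size, 226 of 598 tested microRNAs fell and 121 rose by the same thresholds. How many microRNAs had groups that stay apart on this total was not counted.

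Normalised read counts were then compared. Counts were scaled by edgeR's TMM method, which assumes that most small RNAs do not change, and are given as CPM, counts relative to the scaled library. miR-21-5p had 66444, 59248 and 68927 CPM in control replicates 1 to 3, and 82895, 87803 and 70790 CPM in RUNX1 replicates 1 to 3. All RUNX1 samples were now above all control samples, the opposite order from the share, with RUNX1 replicate 3 nearest to control. miR-21-3p had 6155, 6181 and 7296 CPM in control replicates 1 to 3, and 4997, 5492 and 5569 CPM in RUNX1 replicates 1 to 3, so every RUNX1 sample was below control. Groups that do not overlap in CPM were frequent, as 61.7% of 598 tested microRNAs had them.

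**Figure D1:**
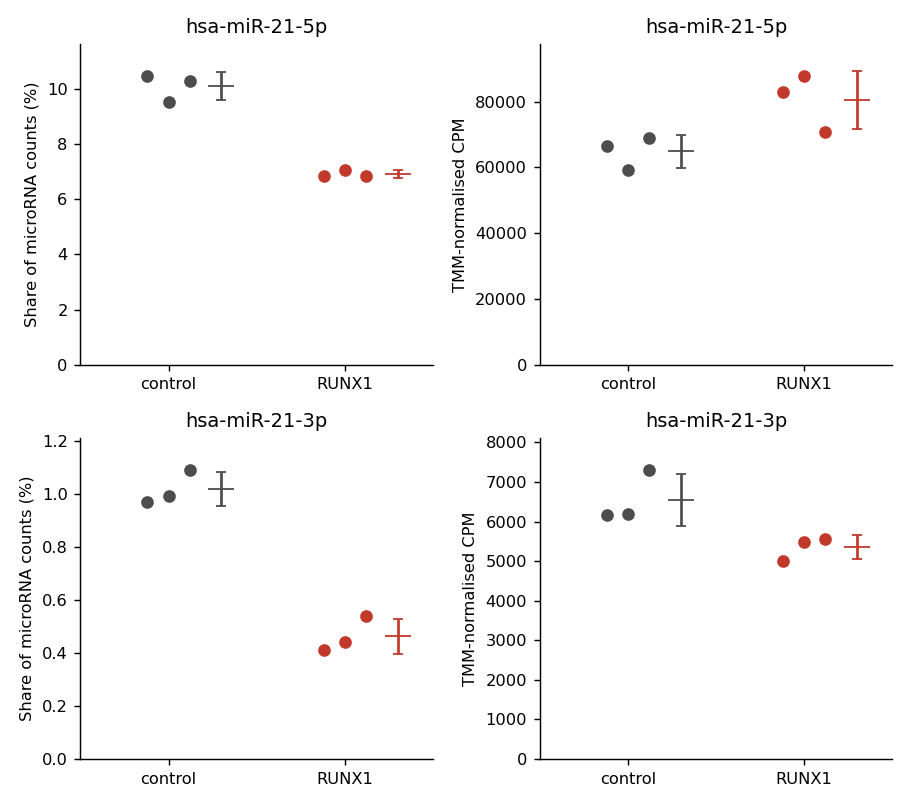
Share of microRNA counts (left, percent) and TMM-normalised CPM (right) of miR-21-5p (top) and miR-21-3p (bottom). Points are single samples and the bars beside them mean ± SD over 3 samples, with all axes from 0. For miR-21-5p the RUNX1 samples lie below control in share and above control in CPM, and for miR-21-3p they lie below control in both.

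Neither arm was altered under TMM by the thresholds of the study, an unadjusted P below 0.05 with a log2 change of 0.5 or more in size. miR-21-5p had a log2 change of 0.31 (SE 0.126, edgeR quasi-likelihood adjusted p = 0.0586, by Benjamini-Hochberg over 947 small RNAs). miR-21-3p had -0.29 (SE 0.122, edgeR quasi-likelihood adjusted p = 0.0681). With all samples their unadjusted P were below the threshold and their size was not past it. With each replicate left out in turn, the unadjusted P was at or above the threshold in 4 of 6 fits for miR-21-5p and in 5 of 6 for miR-21-3p. By contrast, 57.6% of the 947 small RNAs were altered, and among the microRNAs 33.4% were altered upwards and 22.6% downwards. Without RUNX1 replicate 3 miR-21-5p stood at 0.48, and without control replicate 3 miR-21-3p stood at -0.19, both short of the size threshold.

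The sign of the change of either arm depended on the scaling. Under 13 scalings, of which 3 were chosen after seeing the data, the log2 change of miR-21-5p ranged from -0.63 to 2.20, with 8 above and 5 below 0. That of miR-21-3p ranged from -1.20 to 1.60, with 3 above and 10 below 0. Some of the 13 scalings share reference RNAs, so they are not independent of each other. With library size only, miR-21-5p stood at -0.40 (SE 0.0926), short of the threshold, while miR-21-3p fell by 0.98 (SE 0.129). Under that scaling 67.7% of small RNAs were altered, and 48.8% of microRNAs fell. With total microRNA counts as library size both arms fell, miR-21-5p by 0.55 (SE 0.0932) and miR-21-3p by 1.13 (SE 0.135), as did 53.0% of microRNAs. The TMM factors averaged 1.28 for control against 0.786 for RUNX1 libraries, and the 57.6% of small RNAs altered go against what the method assumes.

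Small RNAs that serve as q-RT-PCR references did not move together, and scaling to each of them placed miR-21 differently. Under TMM, SNORD68, a C/D box snoRNA, had -1.89 (SE 0.121), and with SNORD68 as library size miR-21-5p stood at 2.20 and miR-21-3p at 1.60. SNORD48, another C/D box snoRNA, had -0.31 (SE 0.144) and was not altered, and scaling to it gave 0.65 and 0.0315. miR-191-5p had 0.98 (SE 0.172), and scaling to it gave -0.63 and -1.20. SNORD44 and RNU6-2 had at most 6 counts in any sample. Of the other references, let-7a-5p and miR-103a-3p rose under TMM by 0.62 and 0.70, miR-16-5p had -0.03 and was not altered, and none of the 3 was used alone as library size. Scaling to SNORD68 or SNORD48 thus put miR-21-5p past the threshold upwards, and scaling to miR-191-5p downwards.

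Another scaling shifts all small RNAs by nearly the same amount, so the arms were also placed among the other microRNAs. miR-21-5p lay 0.21 above the median log2 change of the 598 tested microRNAs under TMM, and between 0.16 and 0.32 above it with a replicate left out, the highest without RUNX1 replicate 3. miR-21-3p had -0.40 relative to that median under TMM, and from -0.42 to -0.32 with a replicate left out. Under TMM 251 microRNAs had a higher log2 change than miR-21-5p, and 204 a lower one than miR-21-3p. The median microRNA itself moved from 0.11 under TMM to -0.59 with library size only.

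**Figure D2:**
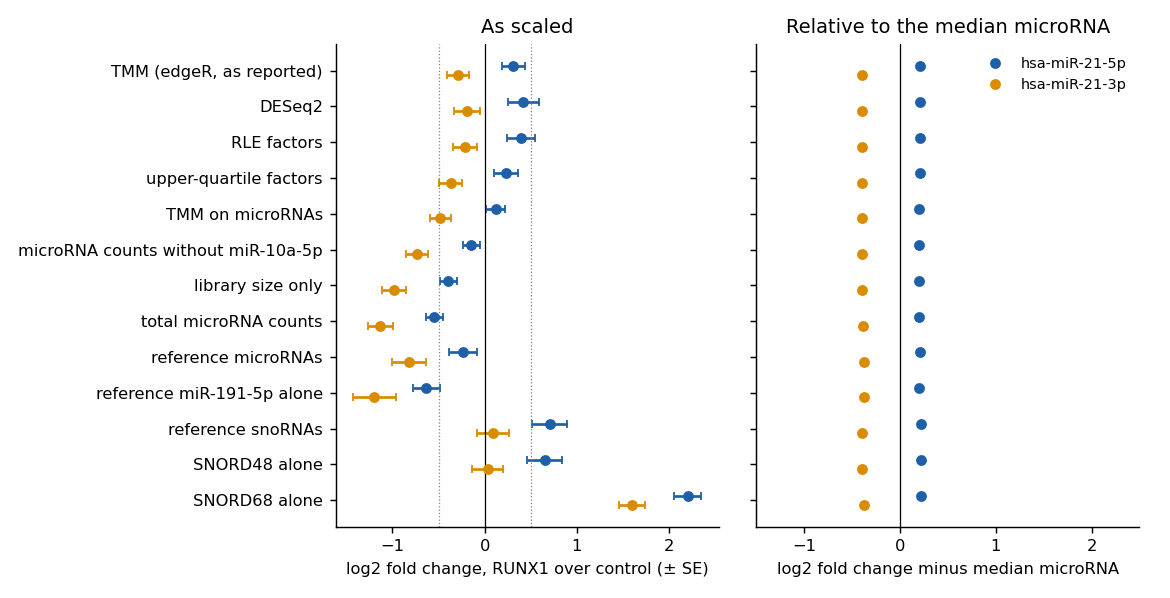
Log2 change of miR-21-5p (blue) and miR-21-3p (orange), RUNX1 over control, under 13 scalings (rows), as scaled with SE (left; dotted lines at -0.5 and 0.5) and after subtraction of the median microRNA (right). Scaling shifts both arms and the median microRNA by nearly the same amount, so on the left the arms run from -0.63 to 2.20 and from -1.20 to 1.60, and the near-constant values on the right follow from the subtraction.

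The ratio of the arms within a library needs no scaling, and it was higher in RUNX1 than in control samples. Control replicates 1 to 3 had 10.8, 9.59 and 9.45 counts of miR-21-5p per count of miR-21-3p, and RUNX1 replicates 1 to 3 had 16.6, 16.0 and 12.7. Every RUNX1 sample was above every control sample, and RUNX1 replicate 3 was the nearest to control. The 5p arm made up 90.8% ± 0.599 of the counts of both arms in control against 93.7% ± 0.876 in RUNX1 cells (two-sided exact permutation test, p = 0.1). The log2 ratio was 3.31 ± 0.106 against 3.91 ± 0.208, a change of 0.60 or 1.51-fold (SE 0.129, limma adjusted p = 0.0041, by Benjamini-Hochberg over 144 arm pairs). Without each replicate in turn the change was 0.52 to 0.71, and the limma adjusted p stayed below 0.05. The arms differ in sequence and may be captured unequally, so the ratio is compared between groups and is not a ratio of molecules. Any difference in preparation marked by the letters in the library names could also enter the ratio, and cannot be told apart from the condition.

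A changed arm ratio was common. Of the 144 hairpins whose arms both passed the filter, 43.8% changed, 22.9% towards the 5p arm and 20.8% towards the 3p arm, and in 54.9% the ratios of the groups did not overlap. The change of miR-21 ranked 42 of 144. Next to it in rank were miR-374b with 0.62 (SE 0.221) and let-7e with 0.59 (SE 0.186), which changed, and miR-629 with 0.61 (SE 0.240) and miR-561 with 0.54 (SE 0.364), which did not pass. In control cells 72.2% of the hairpins were less weighted to the 5p arm than miR-21. In 7 hairpins both arms had at least 1000 CPM on average, a minimum chosen after the values were seen. Of these, miR-21 alone passed the test towards the 5p arm, and miR-142 with -0.44 (SE 0.140) and miR-130b with -0.46 (SE 0.122) passed towards the 3p arm. The other 4, miR-126, miR-17, miR-30e and miR-423, had changes from -0.24 to 0.29 and did not pass. Hairpins short of that minimum also passed towards the 5p arm, such as miR-18a with 0.92 (SE 0.243) and miR-106b with 0.78 (SE 0.207). Others short of it, such as miR-223 with -1.63 (SE 0.248), passed towards the 3p arm.

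miR-590-5p, which carries the seed of miR-21-5p printed above, was far less abundant. It had 13, 86 and 74 counts in control replicates 1 to 3, and 140, 88 and 87 in RUNX1 replicates 1 to 3. These were 0.00138% ± 0.000375 of microRNA counts in control against 0.00112% ± 0.000115 in RUNX1 cells. Under TMM its log2 change was 0.47 (SE 0.213) and not altered, and it was above 0 under 9 and below 0 under 4 of the 13 scalings. The opposite arm, miR-590-3p, had a share of 0.0223% ± 0.000684 against 0.0176% ± 0.00135. It rose under TMM by 0.53 (SE 0.153) but had -0.19 with library size only.

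The microRNAs whose normalised counts ran most like those of miR-21-5p over the 6 samples were miR-106b-5p, miR-192-5p, miR-140-3p, let-7e-5p and miR-186-5p. Their distances in centred log2 CPM were 0.132 to 0.234, against a median of 0.993 over 145 microRNAs with at least 100 CPM. Their log2 changes under TMM were 0.33 to 0.40, short of the size threshold, with an unadjusted P (edgeR quasi-likelihood) below 0.05 for each. For miR-21-3p the nearest were miR-4326, miR-25-3p, miR-18a-5p, miR-7-1-3p and miR-19b-1-5p, with distances of 0.176 to 0.299 against a median of 1.19 over 310 microRNAs with at least 10 CPM. The log2 changes of these 5 under TMM were -0.36 to -0.12, also short of the size threshold. The microRNAs were chosen by the same CPM values, so changes near those of the arms follow from the choice. The points share libraries and scaling, and the distances are a description.

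Within 5 Mb of MIR21 on chromosome 17, RefSeq lists 10 other microRNA hairpins, with 14 entries in the count files, of which 6 had enough counts to test. These 6 are both arms of MIR142, MIR454 and MIR301A, so they are not separate loci. MIR454 and MIR301A start at 59137758 and 59151136, on the same strand. Under TMM 4 of the 6 rose and 0 fell, where 33.4% of all tested microRNAs rose and 22.6% fell. With library size only 3 rose and 2 fell, where 15.2% of all rose and 48.8% fell. miR-142-3p and miR-142-5p, both abundant in blood cells, rose by 2.16 (SE 0.210) and 1.69 (SE 0.147), and miR-301a-3p by 1.79 (SE 0.157). These 3 rose under each of the 13 scalings. miR-454-3p rose by 1.05 (SE 0.156) under TMM and had 0.33 with library size only. miR-454-5p and miR-301a-5p had -0.12 (SE 0.164) and -0.43 (SE 0.295) under TMM, not altered, and fell with library size only.

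Of 14 microRNAs that, like miR-21, are often raised in tumours, 13 could be tested. Under TMM 6 rose, 0 fell and 7 were not altered, beside 33.4% rising and 22.6% falling among all tested microRNAs. With library size only 4 rose, 6 fell and 3 were not altered, beside 15.2% rising and 48.8% falling. Their median log2 change was 0.15 under TMM, against 0.11 for all tested microRNAs. miR-221-3p and miR-222-3p, which target the receptor KIT, rose by 4.22 (SE 0.217) and 2.52 (SE 0.174) and did so under each of the 13 scalings, as did miR-10b-5p with 1.94 under TMM. In control replicates 1 to 3 miR-221-3p had only 9, 47 and 62 counts. miR-182-5p, a member that is abundant in these cells, had 0.15 (SE 0.121) under TMM and was not altered. Also not altered were miR-17-5p, miR-18a-5p, miR-19b-3p, miR-20a-5p and miR-92a-3p, with -0.43 to -0.13 under TMM, while miR-19a-3p rose by 0.83 (SE 0.130). Among the 20 most abundant microRNAs of control cells, 8 rose, 2 fell and 10, miR-21-5p included, were not altered under TMM, against 3, 9 and 8 with library size only. These counts stand beside the same shares of all tested microRNAs.

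Lists of cell type markers were read beside the same background, 33.4% of microRNAs rising and 22.6% falling under TMM, and 15.2% rising and 48.8% falling with library size only. The leukocyte list was miR-142-3p, miR-142-5p, miR-223-3p, miR-150-5p and miR-155-5p. It took 2.14% to 2.45% of microRNA counts in control and 3.59% to 4.35% in RUNX1 cells. Of 4 members tested 4 rose under TMM and 2, both arms of miR-142, with library size only. Most of the sum was miR-142-5p, with a mean share of 1.83% in control against 3.23% in RUNX1 cells. miR-142-3p had 0.238% against 0.579%. The mean share of miR-223-3p was 0.205% against 0.209%, and RUNX1 replicate 3, with 0.152%, lay below every control sample. miR-155-5p had 2 to 27 counts per sample. The stromal and muscle list, with 6 of 7 members found, took 0.0113% to 0.0116% in control and 0.174% to 0.189% in RUNX1 cells, and of 3 members tested 3 rose under TMM and 2 with library size only, while miR-199a-5p had 0 counts in all samples. In RUNX1 cells most of that sum was miR-143-3p, with 0.00293% ± 0.000308 in control against 0.171% ± 0.00818 in RUNX1 cells, whereas miR-145-5p had 0.00849% ± 0.000170 against 0.00822% ± 0.000350. The epithelial list took 0.00859% to 0.00944% in control and 0.0134% to 0.0159% in RUNX1 cells, and of 4 members tested 3 rose under TMM and 1 with library size only. Here miR-205-5p went from 0.000112% ± 9.80e-05 to 0.00612% ± 0.00133, and miR-200b-3p had 0.00270% ± 8.01e-05 against 0.00112% ± 0.000173. Of the erythroid list, 1 of 4 rose and 3 fell under TMM, and 0 rose and 3 fell with library size only. Liver miR-122-5p and the neural miR-9-5p and miR-124-3p had too few counts to test, and miR-124-3p had none. The part of these markers in the values of miR-21 was not tested.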

How the data were processed

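Small RNA libraries (TruSeq Small RNA kit, HiSeq2000) of 3 control and 3 RUNX1 samples were used. The authors deposited whole-number read counts per small RNA, without normalization. The submitters' processing notes list CASAVA 1.8.2 and hg19, and the study used the OASIS platform. How reads with several matches were handled is not given in the sources used here. Groups and replicate numbers come from the sample titles.

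Entries passing filterByExpr (minimum count 10, minimum total 15) were scaled by TMM, then fitted together in edgeR 4.0.16 (R 4.3.3; quasi-likelihood, condition as sole covariate). SE was derived as the log2 change over the square root of its F statistic. Log2 ratios of 5p to 3p counts (0.5 added to each) were tested over all hairpins in limma 3.58.1, with a trend. Exact permutation tests used SciPy 1.17.1. Total counts of 1618248 to 15245007 set the precision, with a floor of 3 counts. Both fits were tested on simulated data. The edgeR and limma p-values set a difference against the spread between these samples, moderated over all entries or hairpins tested.

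The microRNAs named besides miR-21 are its seed relatives, neighbours in abundance, profile, ratio change and position, reference RNAs, miR-10a-5p, and tumour and cell type lists. Members and lists were chosen with earlier results of these data known. Alternatives covered DESeq2 1.42.0, scalings, filters, thresholds, pseudocounts, the replicate block, predicted microRNAs and each replicate left out.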

Additional observations from a re-analysis of the deposited data

How the results depend on the processing

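The direction of miR-21-5p in RUNX1 against control samples reversed with library size only (-0.40), total microRNA counts (-0.55), microRNA counts without miR-10a-5p (-0.14), the geometric mean of 4 reference microRNAs (-0.24) and, chosen after seeing the data, miR-191-5p alone (-0.63). It passed the thresholds upwards with the reference snoRNAs, the summed counts of SNORD68, SNORD48 and SNORD44 (0.71). Chosen after seeing the data, SNORD48 alone (0.65) and SNORD68 alone (2.20) also put miR-21-5p past them upwards. Most of the sum was SNORD48, with 17214 to 70527 counts per sample against 866 to 4321 for SNORD68. The sum and SNORD48 alone are thus nearly the same scaling. miR-21-3p passed the thresholds downwards with library size only (-0.98), total microRNA counts (-1.13), microRNA counts without miR-10a-5p (-0.73), the reference microRNAs (-0.82) and miR-191-5p alone (-1.20). It reversed with the reference snoRNAs (0.0892), SNORD48 alone (0.0315) and SNORD68 alone (1.60). Of the 4 reference microRNAs, 3 have several loci and had few counts. The difference in share moved from -3.19 to -1.98 points (all counts) and -1.03 points (without miR-10a-5p) for miR-21-5p, and from -0.554 to -0.412 and -0.441 points for miR-21-3p.

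With a replicate left out, the changes ranged from 0.24 to 0.48 for miR-21-5p, from -0.34 to -0.19 for miR-21-3p and from 0.52 to 0.71 for the arm ratio, and the differences in share from -3.47 to -3.01 and from -0.592 to -0.518 points. All 12 alternatives for the arm ratio kept its direction and an adjusted p under 0.05. Replicate numbers, taken from the sample titles, gave no sign of pairs. The library name of RUNX1 replicate 1 carries another number than its title, so pairs by library name were not checked. Correlations of deviations were -0.083 to -0.00179 for same-numbered samples and -0.0359 to 0.0638 for the others. With 3 samples a group this cannot exclude pairs. With the replicate block the values were 0.31, -0.29 and 0.60, with no call changed. Of 947 small RNAs, 545 were altered under TMM, 368 at a log2 change of 1 and 821 with SNORD68 alone. The cause of these differences was not tested. Depth did not limit miR-21, and limited miR-590-5p, with 13 counts in the shallowest library.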

Other observations

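The count files also list 20 predicted microRNAs, and 5 of them repeat the counts of a known microRNA to within 1% in every sample. The largest of these had 504092 counts over the 6 samples, against 504090 for miR-27b-3p, and the others matched miR-130b-5p, miR-15a-5p, miR-146b-3p and miR-151a-5p. Their reads enter the microRNA total in duplicate. None of the 5 matched an arm of miR-21. With predicted microRNAs left out of the total, miR-21-5p had 10.3% ± 0.499 in control against 7.02% ± 0.133 in RUNX1 cells, and miR-21-3p 1.03% ± 0.0644 against 0.472% ± 0.0676 (SD over 3 samples).

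Summed, the arms of miR-21 had 11.1% ± 0.509 of the microRNA counts in control against 7.38% ± 0.138 in RUNX1 cells. With miR-10a-5p left out of the total the sum had 12.1% ± 0.574 against 10.6% ± 0.447. Its groups did not overlap, a pattern whose frequency among all microRNAs was not counted.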
